A study of Homo sapiens with 26 samples.

Results

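The genes described here are the 32 members of a list of sterol and fatty acid synthesis genes, taken as every row of the deposited expression tables that carries one of those symbols. All 32 are among the 18165 genes of the first table and the 17734 genes of the second. They comprise 18 sterol synthesis enzymes, 5 genes of sterol sensing and transport (INSIG1, STARD4, SREBF1, SREBF2 and SCAP), and 9 genes of a fatty acid branch (ACLY, ACACA, ACSS2, FASN, SCD, ELOVL6, FADS1, FADS2 and LPIN1). RNA was sequenced from LoVo cells, a human colorectal cancer cell line, in 26 libraries that form 13 groups of 2. The lines were wild type LoVo and 2 derived lines that carry the PIK3CA mutations E545K or H1047R, delivered by lentivirus. The product of PIK3CA is a catalytic chain of PI3K, which signals to AKT. The first table covers each of the 3 lines in DMSO for 72 h, in 0.5 µM palbociclib for 72 h, and in medium conditioned by senescent cells, collected after 72 h of palbociclib or DMSO. Palbociclib inhibits the cell cycle kinases CDK4 and CDK6. The second table covers the mutant lines alone, in 0.5 µM palbociclib or in 0.5 µM palbociclib with 4 µM erlotinib for 48 h. Erlotinib inhibits the EGF receptor kinase. All cells were grown with 10% fetal bovine serum, which is itself a source of cholesterol and fatty acids. The submitters name 1 clone per mutant line for the palbociclib experiment, so line and clone cannot be told apart. Not stated are the clones behind the other libraries, the genotype of the cells that gave the medium, the time spent in it, and how long palbociclib alone lasted in the second table. The protocol also mentions control cells collected at 48 h without saying which libraries these are. Nor is it stated whether any library had medium collected after DMSO rather than after palbociclib.

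Sterols and fatty acids are both built from cytosolic acetyl-CoA. The mevalonate pathway turns acetyl-CoA into farnesyl diphosphate and squalene, and later enzymes turn squalene into cholesterol, while acetyl-CoA carboxylase, fatty acid synthase and a set of desaturases and elongases make fatty acids. Many of these genes are targets of the SREBP transcription factors, which SREBF1 and SREBF2 encode. SREBPs are held in the endoplasmic reticulum by SCAP and INSIG proteins when sterols are plentiful, and are released by proteolysis when sterols fall. INSIG1 is itself an SREBP target, and growth factor signalling through PI3K and AKT is known to raise SREBP activity.

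Promoter sequence was available from RefSeq for 28 of the 32 genes (GRCh38.p14, 250 bases before to 50 bases after each listed transcription start). ACAT2, FDFT1, SQLE and FASN had no entry. On either strand, the classical sterol regulatory element TCACNCCAC lay in the window of 1 of the 28 genes, SREBF2, against 1.39% of all genes in the RefSeq set. The looser form TCACNCNAC, which includes the first, lay in 5 (SREBF2, FDPS, HSD17B7, ACSS2 and FADS2), against 3.13% of all genes. CCAAT, the letters bound by NF-Y, lay in 21 of the 28 (75%), against 39.7% of all genes. By window it lay in 62.5% of the 40 windows of these genes and 34.6% of all 35116. A gene counts when any of its windows holds the string. The 27305 genes of the RefSeq set were not limited to those expressed here or matched for base content. GGGCGG, a GC box letter string, lay in 27, against 48.3%. The E-box CACGTG lay in 4, against 8.77%. These matches are letter matches and no binding was measured. The 250 bases before the start are shown for 5 genes on the plus strand: the 3 that hold the looser element and belong to sterol synthesis or its control, and INSIG1 and MSMO1, whose levels ranged most among the sensing genes and the sterol enzymes. Capitals mark TCACNCNAC and CCAAT on either strand (ATTGG is CCAAT read from the other strand). The regions are chr22:41832855-41833104 for SREBF2, chr1:155308616-155308865 for FDPS, chr1:162790452-162790701 for HSD17B7, chr7:155297628-155297877 for INSIG1 and chr4:165327419-165327668 for MSMO1.
SREBF2: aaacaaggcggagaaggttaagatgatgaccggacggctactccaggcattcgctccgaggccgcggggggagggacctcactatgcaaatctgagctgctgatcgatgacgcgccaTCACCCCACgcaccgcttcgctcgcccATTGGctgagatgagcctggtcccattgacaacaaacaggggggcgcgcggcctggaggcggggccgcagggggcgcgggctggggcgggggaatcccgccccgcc
FDPS: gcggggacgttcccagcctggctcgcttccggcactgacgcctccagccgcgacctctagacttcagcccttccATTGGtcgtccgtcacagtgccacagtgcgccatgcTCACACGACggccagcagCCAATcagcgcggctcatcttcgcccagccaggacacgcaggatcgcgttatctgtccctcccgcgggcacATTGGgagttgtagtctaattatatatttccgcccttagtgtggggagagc
HSD17B7: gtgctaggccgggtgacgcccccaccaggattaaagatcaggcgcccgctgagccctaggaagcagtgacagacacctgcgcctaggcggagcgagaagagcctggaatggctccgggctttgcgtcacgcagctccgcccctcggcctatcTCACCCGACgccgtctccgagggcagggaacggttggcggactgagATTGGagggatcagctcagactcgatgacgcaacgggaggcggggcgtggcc
INSIG1: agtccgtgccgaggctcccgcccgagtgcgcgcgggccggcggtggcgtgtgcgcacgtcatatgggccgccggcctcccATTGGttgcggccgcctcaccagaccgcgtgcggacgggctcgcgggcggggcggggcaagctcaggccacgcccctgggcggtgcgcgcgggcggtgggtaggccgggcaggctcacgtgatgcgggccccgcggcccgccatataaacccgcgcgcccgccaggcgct
MSMO1: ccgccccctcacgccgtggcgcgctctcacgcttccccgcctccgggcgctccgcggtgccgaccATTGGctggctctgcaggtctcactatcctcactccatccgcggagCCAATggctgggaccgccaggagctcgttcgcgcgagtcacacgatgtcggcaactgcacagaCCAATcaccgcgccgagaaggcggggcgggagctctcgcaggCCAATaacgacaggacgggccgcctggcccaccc
The element in capitals began 133 bases before the start in SREBF2, 140 in FDPS and 98 in HSD17B7. MSMO1 held 4 CCAAT strings and FDPS 3, while SREBF2, HSD17B7 and INSIG1 held 1 each. No TCACNCNAC string was present in the windows shown for INSIG1 and MSMO1, which says only that these letters are absent there.

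Levels are FPKM, sequenced fragments per gene, divided by transcript length and by the size of the library. Changes are relative log2 changes: the difference in log2(FPKM + 1) between 2 groups minus the median difference over all genes tested in that comparison (12607 genes in the first table, 12463 in the second). SE is the standard error of the unshifted change. A gene was called higher or lower when the limma test of its unshifted change against 0 gave a Benjamini-Hochberg adjusted p below 0.05 over all genes tested. Each group has 2 libraries and nothing says that they are separate cultures, so the p-values measure only the spread between these libraries. Where groups are said not to overlap, this only describes the values of 2 against 2 libraries. The share of all genes without overlap is not given. Read depth is not given. FPKM sums ran from 441643 to 524290 per library. The epithelial genes EPCAM, CDH1, KRT8 and KRT18 were well expressed in every library, as was the intestinal factor CDX2 (18.7 to 89.7 FPKM), whereas KRT20 reached at most 1.20 FPKM and VIL1 at most 3.76. Of the markers of other cell types, CD68 stood at 24.1 to 68.9 FPKM and the fibroblast genes COL3A1 at 0.26 to 19.6 and COL1A1 at 0.52 to 3.67, while PTPRC, PECAM1, VWF, CDH5, PDGFRB, ADIPOQ and ALB did not exceed 1.55. In DMSO, PIK3CA stood at 5.38 and 5.42 FPKM in wild type, 8.20 and 7.37 in E545K, and 6.36 and 7.19 in H1047R, and these totals do not separate the mutant from the endogenous transcript. In palbociclib both H1047R libraries (5.95 and 4.38 FPKM) lay below both wild type libraries (7.23 and 6.68), and E545K stood at 10.39 and 9.92. With conditioned medium, PIK3CA stood at 15.15 and 16.25 FPKM in E545K, 6.20 and 5.93 in wild type and 6.79 and 5.75 in H1047R. Replicates agreed least for the 32 genes in H1047R with palbociclib (residual SD on the log2 scale 0.206 and, in the second table, 0.180) and in H1047R with DMSO (0.124), against 0.055 to 0.105 in the other 10 groups. The median change over all genes tested was not 0 in several comparisons (0.25 and 0.26 for the E545K and H1047R lines against wild type in DMSO, 0.29 for conditioned medium and 0.14 for palbociclib in wild type, and 0.20 for E545K against wild type in palbociclib). Counts of calls in the reported fit are therefore given with the shares of all genes called. For other scalings and alternative fits the shares of all genes are not given, so those counts have no share to be set against. A gene whose relative change is near or below 0 can still be called higher.

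Across the 9 groups of the first table, wild type cells in DMSO had the highest mean of 21 of the 32 genes and E545K cells in palbociclib had the lowest mean of 23. For 20 genes both held. The 32 genes together made up 0.864 and 0.855% of the FPKM sum in wild type with DMSO, 0.572 and 0.56% in wild type with palbociclib, 0.395 and 0.376% in E545K and 0.393 and 0.394% in H1047R with DMSO, and 0.207 and 0.205% in E545K with palbociclib. The ratio of the highest to the lowest group mean had a median of 3.31 over the 18 sterol enzymes (1.52 to 11.3), 3.90 over the 5 sensing and transport genes (1.73 to 49.0) and 2.32 over the 9 fatty acid genes (1.27 to 10.4).

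INSIG1 (chr7:155297878-155310235), whose product holds the SREBP complex in the endoplasmic reticulum, covered the widest range. It stood at 869.9 and 889 FPKM in wild type with DMSO, 429 and 434 with palbociclib and 106 and 122 with conditioned medium. In E545K it stood at 199.6 and 197 FPKM with DMSO, 19.7 and 16.2 with palbociclib and 124 and 127 with conditioned medium. The H1047R values were 165 and 162 FPKM, then 86.1 and 83.6, then 102 and 98.5 for these treatments. From high to low the groups ran wild type DMSO, wild type palbociclib, E545K DMSO, H1047R DMSO, then the conditioned medium groups of E545K, wild type and H1047R, then H1047R palbociclib, and E545K palbociclib last. No neighbouring groups in this order had overlapping values, but in conditioned medium neither mutant line differed from wild type by the limma test (adjusted p 0.229 for E545K and 0.218 for H1047R).

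**Figure D1:**
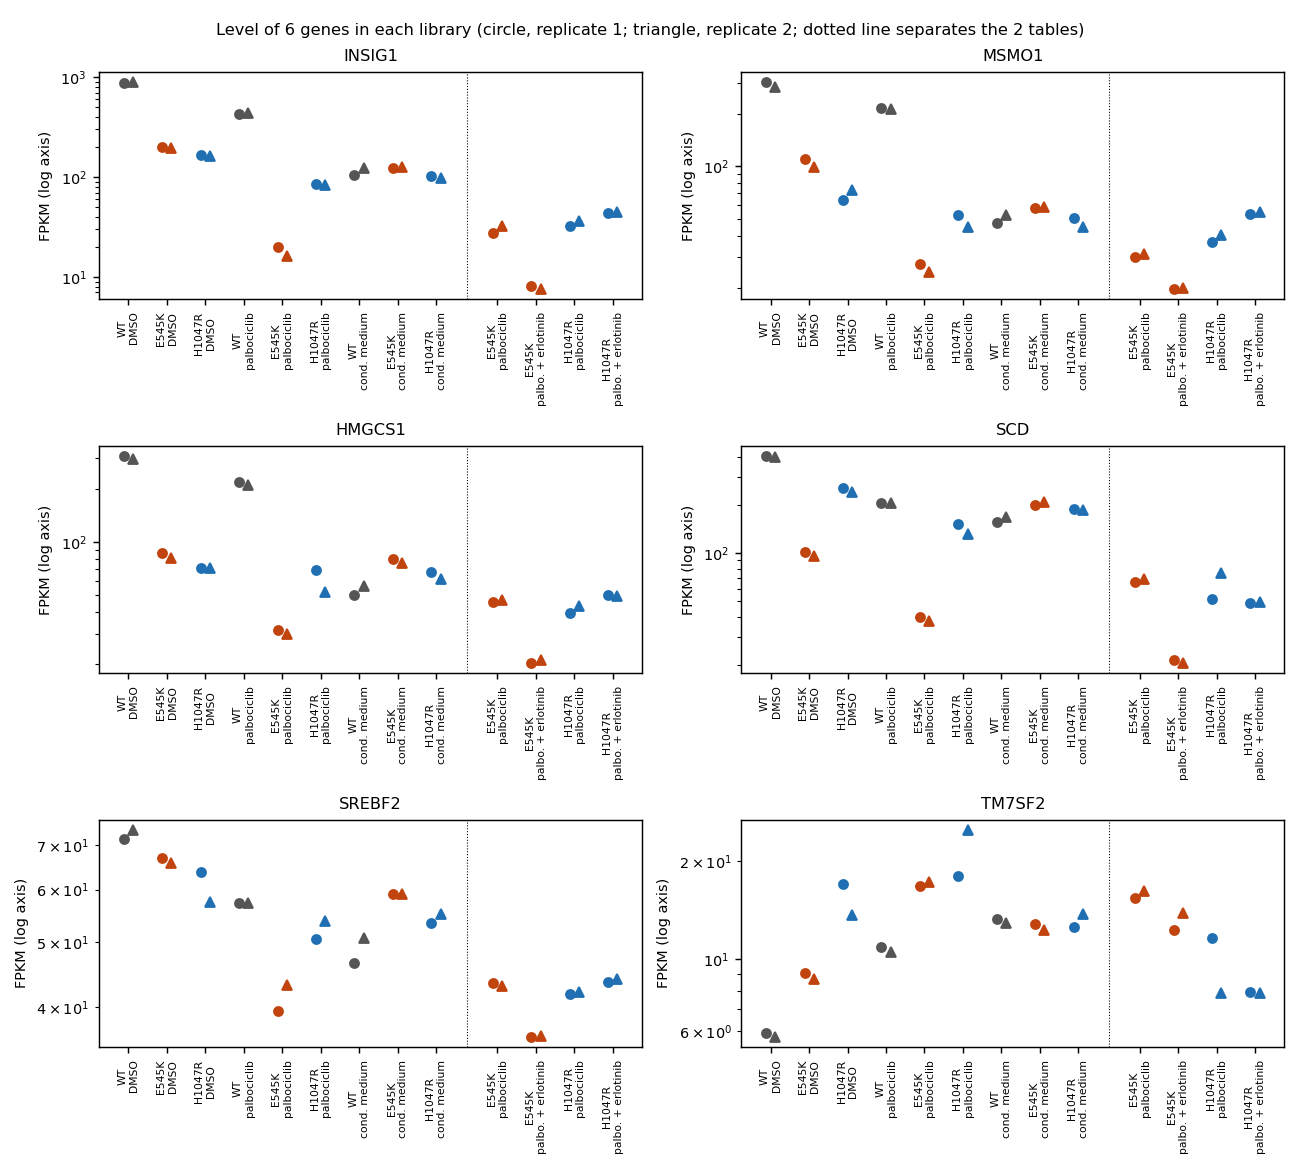
FPKM on log axes of INSIG1, MSMO1, HMGCS1, SCD, SREBF2 and TM7SF2 in each of the 26 libraries, with circles for replicate 1, triangles for replicate 2, grey for wild type, orange for E545K and blue for H1047R; the y axes differ between panels. INSIG1 falls from 869.9 and 889 FPKM in wild type with DMSO to 19.7 and 16.2 in E545K with palbociclib, while TM7SF2 is lowest in wild type with DMSO (5.94 and 5.78).

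In DMSO, both mutant lines held less mRNA of most of the 32 genes than wild type cells. In E545K, 21 were lower and 5 higher, where 10.4% of all genes tested were lower, 48.4% higher and 58.8% either. After centring each library on its median gene the split was 26 lower and 1 higher, and after quantile normalization 25 and 2. The shares of all genes under these scalings are not given. In H1047R, 21 were lower and 4 higher (all genes 17.5% lower, 49.9% higher and 67.4% either). The median relative log2 change over the 32 genes was -1.13 in E545K and -0.95 in H1047R, where 0 is the median of all genes. Both comparisons use the same wild type libraries.

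Of the 18 sterol enzymes, 13 were lower and 2 higher in E545K (all genes 10.4% and 48.4%), and 12 were lower and 2 higher in H1047R (all genes 17.5% and 49.9%). The higher ones were TM7SF2, whose values are given with conditioned medium, and PMVK (0.08 (SE 0.12, adjusted p 0.0255) in E545K and 0.52 (SE 0.12, adjusted p 3.66e-05) in H1047R). HMGCS1 (chr5:43287470-43313412) encodes a cytosolic synthase early in the mevalonate pathway. It stood at 308 and 297 FPKM in wild type, 86.2 and 80.6 in E545K and 70.6 and 71.1 in H1047R, all in DMSO. Its relative log2 change was -2.10 (SE 0.11, adjusted p 8.89e-09) in E545K and -2.34 (SE 0.11, adjusted p 8.4e-10) in H1047R. MSMO1 (chr4:165327669-165343164), a sterol methyl oxidase late in the pathway, stood at 303 and 286 FPKM in wild type, 109.9 and 98.7 in E545K and 63.8 and 73.3 in the H1047R line. Its values were 2.82-fold lower in E545K and 4.29-fold lower in H1047R on the FPKM scale, and no mutant library overlapped the wild type. FDFT1, the squalene synthase, stood at 492 and 512 FPKM in wild type against 239 and 252 in E545K and 185 and 185 in H1047R. SQLE, the squalene epoxidase, stood at 120.1 and 121 FPKM in wild type against 46.5 and 47.4 in E545K and 50.0 and 46.2 in H1047R. For these enzymes too the groups did not overlap, and both mutant lines were called lower.

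Among the sensing genes, INSIG1 changed by -2.39 (SE 0.08, adjusted p 1.7e-10) in E545K and -2.68 (SE 0.08, adjusted p 2.7e-11) in H1047R. STARD4, which carries cholesterol between membranes, stood at 115 and 104 FPKM in wild type, 64.4 and 51.6 in E545K and 31.0 and 36.7 in H1047R, and changed by -1.16 and -1.93 (SE 0.18, adjusted p 1.66e-06). SREBF1, which encodes the SREBP mostly linked to fatty acid genes, stood at 106 and 105 FPKM in wild type and was lower in both lines (57.7 and 57.5 in E545K, 68.3 and 54.2 in H1047R, adjusted p 1.13e-05 and 1.61e-05). SREBF2, which encodes the SREBP mostly linked to sterol genes, stood at 71.4 and 73.7 FPKM in wild type and 67.0 and 65.7 in E545K, not called (adjusted p 0.134), and at 63.7 and 57.5 in H1047R, called lower (adjusted p 0.00453).

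In the fatty acid branch, SCD (chr10:100347233-100364826), the desaturase that makes oleate, was lower in both lines. It stood at 404 and 400.0 FPKM in wild type, 102 and 96.4 in E545K and 257 and 243 in H1047R. The relative log2 change was -2.26 (SE 0.07, adjusted p 1.11e-10) in E545K and -0.95 (SE 0.07, adjusted p 1.09e-06) in H1047R, and the 3 lines did not overlap. E545K and H1047R were not tested against each other. ACSS2, which makes acetyl-CoA from acetate, stood at 164 and 164 FPKM in wild type, 53.4 and 50.9 in E545K and 56.9 and 52.6 for H1047R, so that both mutant lines lay together below wild type (relative log2 change -1.89 and -1.83). FASN, the fatty acid synthase, stood at 120.0 and 122 FPKM in wild type, 65.1 and 63.4 in E545K and 81.6 and 69.0 in H1047R. LPIN1, a phosphatidate phosphatase of lipid assembly, stood at 24.5 and 22.6 FPKM in the wild type line, 12.0 and 11.0 in E545K and 15.6 and 14.3 in H1047R. FASN and LPIN1 were called lower in both mutant lines. Of the 9 fatty acid genes 5 were lower in E545K and 5 in H1047R (all genes 10.4% and 17.5% lower). The branch medians were -0.82 and -0.88 for fatty acid genes and -1.21 and -1.12 for sterol enzymes, in the order E545K and H1047R. After quantile normalization they were -0.78 and -0.46 for fatty acid genes and -0.91 and -0.85 for sterol enzymes. The difference between branches was not tested, here or below.

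**Figure D2:**
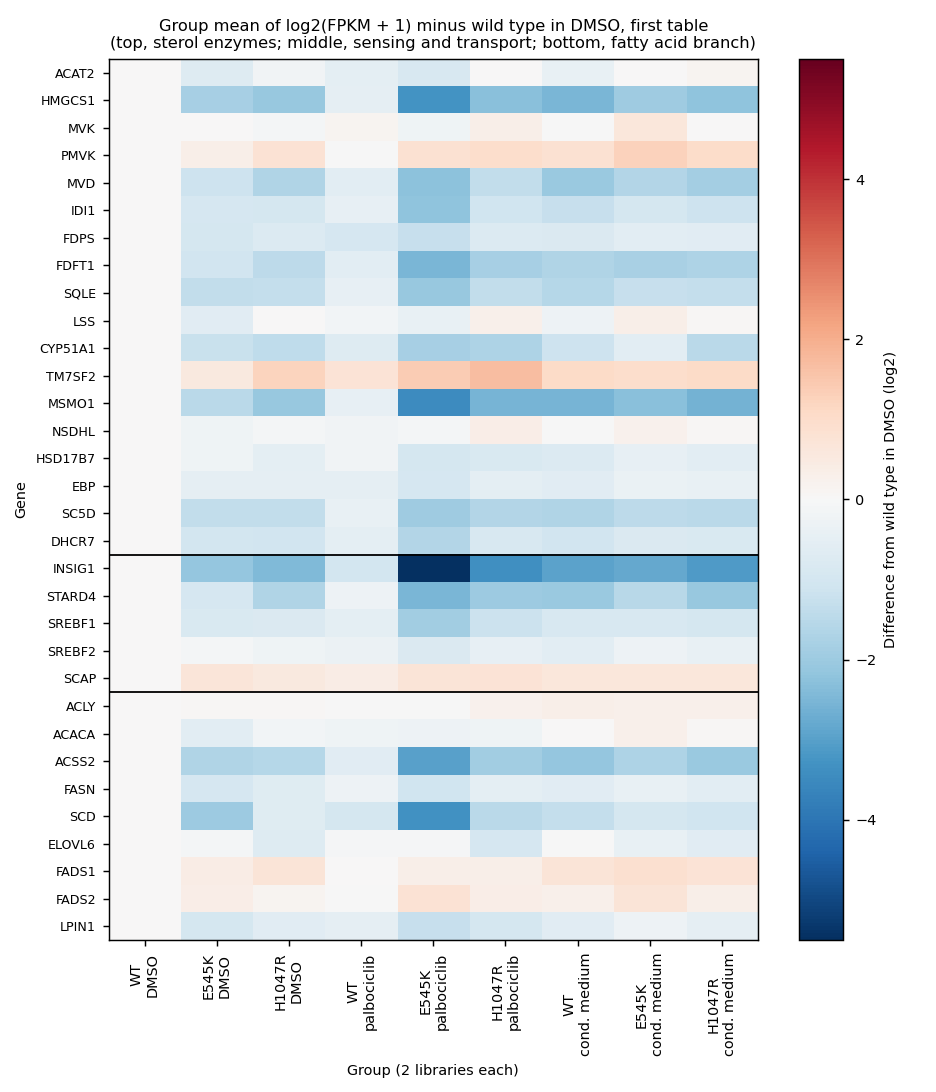
Mean log2(FPKM + 1) of each of the 32 genes (rows) in each of the 9 groups of the first table (columns, 2 libraries each) minus the mean in wild type with DMSO, with blue for lower and red for higher. The E545K palbociclib column holds the lowest value of 23 genes, and TM7SF2, PMVK, SCAP and FADS1 stay above wild type with DMSO in most columns.

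Under palbociclib most of the called genes were lower in every line. In wild type 19 of the 32 were lower and 2 higher than in DMSO (all genes 6.77% and 27.2%, 34% in all). In E545K 18 were lower and 5 higher (all genes 19.3% and 32.9%, 52.2% in all), a split that became 24 and 2 after median-centring and 21 and 2 after quantile normalization. In H1047R 10 were lower and 6 higher (all genes 19.8% and 19.5%, 39.3% in all), or 13 and 3 after quantile normalization. The H1047R total of 16 dropped to 9 without palbociclib replicate 2, to 9 without DMSO replicate 2, and to 2 when only these groups entered the fit. The median relative log2 change over the 32 genes was -0.57 for wild type, -0.58 for E545K and -0.08 for H1047R.

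INSIG1 led the list in each line. Its relative log2 change was -1.16 (SE 0.08, adjusted p 1.17e-06) for wild type, -3.48 (SE 0.08, adjusted p 1.98e-12) for E545K and -0.91 (SE 0.08, adjusted p 1.04e-06) for H1047R. On the FPKM scale these were levels 2.04-fold lower, 11.1-fold lower and 1.93-fold lower. The next largest decreases in E545K were of MSMO1, which went from 109.9 and 98.7 to 27.4 and 24.8 FPKM (relative log2 change -2.04, SE 0.09, adjusted p 1.28e-09), of STARD4, from 64.4 and 51.6 to 19.4 and 17.4 FPKM (-1.68, SE 0.18, adjusted p 5.79e-06), and of FDFT1, from 239 and 252 to 90.0 and 84.3 FPKM (-1.56, SE 0.08, adjusted p 3.03e-09). None of these treated libraries overlapped the DMSO libraries. In wild type the genes after INSIG1 were SCD, which went from 404 and 400.0 to 204 and 204 FPKM (-1.11, SE 0.07, adjusted p 7.67e-07), FDPS, the farnesyl diphosphate synthase, from 229 and 227 to 118 and 125 FPKM (-1.05, SE 0.09, adjusted p 4.12e-06), and CYP51A1, the lanosterol demethylase, from 269.7 and 270.4 to 168 and 164 FPKM (-0.84, SE 0.07, adjusted p 1.24e-05). In H1047R SCD went from 257 and 243 to 152 and 131 FPKM (-0.79, SE 0.07, adjusted p 1.16e-06) and kept its call in every alternative run. MSMO1 changed by -0.46 (SE 0.09, adjusted p 0.00114) and SREBF1 by -0.38 (SE 0.11, adjusted p 0.00858) there. The MSMO1 call was lost with only these groups in the fit, and the SREBF1 call was lost there and without DMSO replicate 1 (adjusted p over all alternatives 0.000221 to 0.113 and 0.00104 to 0.169).

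Fewer genes were called higher than lower under palbociclib. TM7SF2, a sterol reductase, went from 5.94 and 5.78 to 10.9 and 10.5 FPKM in wild type (0.63, SE 0.12, adjusted p 0.000257) and from 9.04 and 8.68 to 16.7 and 17.2 in E545K (0.78, SE 0.12, adjusted p 3.21e-05). PMVK, the phosphomevalonate kinase, changed by 0.42 (SE 0.12, adjusted p 0.00242) in E545K. FADS2 and ACACA were also called higher in E545K, at relative changes of 0.32 and 0.21, but lost the call under both other scalings, and FADS2 never exceeded 1.98 FPKM in any library. In H1047R, NSDHL, a sterol dehydrogenase, stood at 18.5 and 17.3 FPKM in DMSO and 23.1 and 27.1 in palbociclib (0.49, SE 0.10, adjusted p 0.00194). MVK, the mevalonate kinase, stood at 15.9 and 14.2 against 18.4 and 22.9 FPKM (0.45, SE 0.11, adjusted p 0.00575). MVD, the mevalonate diphosphate decarboxylase, stood at 23.1 and 19.3 against 23.8 and 28.2 FPKM (0.31, SE 0.10, adjusted p 0.0341), and TM7SF2 changed by 0.48 (SE 0.12, adjusted p 0.00898). All 4 of these H1047R calls were lost with only these groups in the fit, and those of MVK, MVD and TM7SF2 also without palbociclib replicate 2 or DMSO replicate 2. In H1047R palbociclib replicate 2, KRT8 stood at 8612 FPKM, against 6233 in replicate 1 and 3436 to 6291 in the other first table libraries. Its part in these values was not tested.

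By branch, the median under palbociclib in E545K was -0.67 over the sterol enzymes, -1.15 over the sensing and transport genes and -0.19 over the fatty acid branch. Of the 9 genes of the fatty acid branch 2 were lower and 2 higher (all genes 19.3% lower and 32.9% higher). The lower genes were SCD (102 and 96.4 to 39.9 and 37.4 FPKM) and ACSS2 (53.4 and 50.9 to 19.9 and 19.7 FPKM). After median-centring 6 fatty acid genes were lower, and after quantile normalization 3, with none called higher in either. Shares of all genes under those scalings are not given. FASN stood at 65.1 and 63.4 FPKM in DMSO and 51.7 and 62.1 in palbociclib and was not called (adjusted p 0.148). In wild type the medians were -0.60 for sterol enzymes and -0.38 for fatty acid genes, or -0.38 and -0.27 after quantile normalization. In H1047R they were 0.00 and -0.21, and the sterol median lay 0.21 above the fatty acid median before quantile normalization and 0.01 below it after. Of the 18 sterol enzymes, 5 were called higher and 3 lower in H1047R in the reported fit (all genes 19.5% and 19.8%).

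The difference in palbociclib response between lines was tested directly. Against wild type, the response of E545K was lower for 13 of the 32 genes and higher for 5 (all genes 14.7% and 10.9%, 25.7% in all). The total of 18 became 10 without wild type palbociclib replicate 1 and 11 without E545K DMSO replicate 1. INSIG1 (-2.33, SE 0.12, adjusted p 2.43e-08), MSMO1 (-1.45, SE 0.13, adjusted p 4.6e-06), STARD4 (-1.29, SE 0.26, adjusted p 0.00209) and HMGCS1 (-0.89, SE 0.15, adjusted p 0.000503) fell further in E545K. FDPS (0.66, SE 0.12, adjusted p 0.0022) and ACACA (0.57, SE 0.13, adjusted p 0.009) had higher responses in E545K. Against wild type, the response of H1047R was higher for 9 genes and lower for 1 (all genes 5.16% and 17.4%, 22.6% in all). All 9 higher genes were sterol enzymes, but median-centring gave 11 sterol enzymes and 5 fatty acid genes higher, a count for which the share of all genes is not given. FDPS (1.07, SE 0.12, adjusted p 0.000417) and MVD (1.02, SE 0.14, adjusted p 0.00151) had the largest differences. The total of 10 became 16 after median-centring or without H1047R palbociclib replicate 1, and 4 with only these groups in the fit. INSIG1 was not called there (0.25, SE 0.12, adjusted p 0.593).

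In palbociclib, levels in the mutant lines lay below wild type for most of the genes. In E545K 23 were lower and 5 higher (all genes 19.4% and 45.7%, 65.1% in all), with INSIG1 24.0-fold lower, MSMO1 8.17-fold lower, HMGCS1 7.05-fold lower and SCD 5.29-fold lower on the FPKM scale. In H1047R 18 were lower and 9 higher (all genes 24.1% and 38.5%, 62.5% in all), or 19 and 5 after median-centring. There INSIG1 was 5.08-fold lower, MSMO1 4.37-fold lower, HMGCS1 3.55-fold lower and STARD4 3.30-fold lower. ACAT2, a thiolase at the head of the mevalonate pathway, was 1.50-fold higher in H1047R (0.47, SE 0.09, adjusted p 9.88e-05), with 24.6 and 24.8 FPKM in wild type and 34.3 and 40.1 in H1047R. SREBF2 differed from wild type in E545K (-0.67, SE 0.07, adjusted p 3.74e-05) and was not called in H1047R (adjusted p 0.111).

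In wild type cells genes of all 3 classes were lower with conditioned medium. Of the 32, 22 were lower than in DMSO and 5 higher (all genes 18.6% and 51.9%, 70.5% in all). INSIG1 was 7.71-fold lower (-3.23, SE 0.08, adjusted p 4.1e-12). MSMO1 went from 303 and 286 to 47.5 and 52.5 FPKM (-2.83, SE 0.09, adjusted p 3.94e-11), HMGCS1 from 308 and 297 to 49.7 and 56.0 (-2.79, SE 0.11, adjusted p 1.05e-10) and ACSS2 from 164 and 164 to 33.1 and 40.8 (-2.42, SE 0.08, adjusted p 5.66e-11). IDI1, the isopentenyl diphosphate isomerase, stood at 101 and 93.5 FPKM in DMSO and 38.8 and 40.3 in conditioned medium. MVD stood at 67.2 and 70.2 against 15.4 and 16.3 FPKM. None of these libraries overlapped between treatments. SREBF1 (-1.17, SE 0.11, adjusted p 4.14e-06) and SREBF2 (-0.86, SE 0.07, adjusted p 4.16e-06) were lower as well. The sterol enzymes had a median of -1.22 and the fatty acid branch -0.30, or -1.01 and -0.48 after quantile normalization. Whether the DMSO libraries are a matched control for the hours and medium change of these cells is not stated.

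In the mutant lines fewer genes were lower with conditioned medium. In E545K 14 genes were higher and 5 lower (all genes 32.4% and 24.9%, 57.3% in all), or 13 and 8 after median-centring. Of the 9 fatty acid genes 6 were higher, among them SCD, which went from 102 and 96.4 to 201 and 209 FPKM (0.99, SE 0.07, adjusted p 2.77e-08), ACACA, the acetyl-CoA carboxylase, from 14.4 and 13.6 to 25.8 and 26.5 (0.81, SE 0.09, adjusted p 2.29e-06), and FASN, from 65.1 and 63.4 to 93.3 and 88.7 (0.45, SE 0.10, adjusted p 0.00064). LSS, the lanosterol synthase, went from 15.7 and 15.9 to 31.4 and 29.7 FPKM (0.86, SE 0.08, adjusted p 1.6e-07) and PMVK from 5.20 and 6.36 to 10.9 and 12.8 (0.88, SE 0.12, adjusted p 1.12e-05). The 5 lower genes were MSMO1 (-0.88), FDFT1 (-0.80), INSIG1 (-0.71), STARD4 (-0.65) and MVD (-0.54). The STARD4 call was lost without conditioned medium replicate 2 or DMSO replicate 1. In H1047R 5 genes were lower and 2 higher (all genes 5.97% and 8.65%, 14.6% in all), or 6 and 1 after quantile normalization. INSIG1 changed by -0.71 (SE 0.08, adjusted p 0.000167), MSMO1 by -0.52 (SE 0.09, adjusted p 0.00253), ACSS2 by -0.50 (SE 0.08, adjusted p 0.00157) and SCD by -0.43 (SE 0.07, adjusted p 0.00204). The H1047R total of 7 became 4 without conditioned medium replicate 1 or 2, without DMSO replicate 2, or with only these groups in the fit.

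In conditioned medium the mutant lines did not lie below wild type for most of the genes. Against wild type, 16 genes were higher and 1 lower in E545K (all genes 18.1% and 15.8%, 33.9% in all). The total of 17 became 11 after median-centring, 10 or 11 without either wild type replicate, and 11 without E545K replicate 2. MVK stood at 14.7 and 17.0 FPKM in wild type and 25.3 and 26.1 in E545K (0.64, SE 0.11, adjusted p 0.000197), LSS at 19.8 and 20.0 against 31.4 and 29.7 (0.57, SE 0.08, adjusted p 2.86e-05), and CYP51A1 at 123 and 118 against 178 and 179 (0.54, SE 0.07, adjusted p 4.19e-05). In H1047R 3 genes were higher and 2 lower (all genes 3.06% and 5.31%, 8.38% in all). ACAT2 was the highest of these (0.54, SE 0.09, adjusted p 0.00182). The H1047R total of 5 became 1 without its replicate 2, and 2 or 3 without wild type replicate 1 or 2. The mean log2(FPKM + 1) over the 32 genes was 5.00 and 5.07 in wild type, 5.31 and 5.28 for E545K and 5.11 and 5.10 for H1047R with conditioned medium. With DMSO it was 5.84 and 5.83 for wild type, 5.14 and 5.12 for E545K and 5.19 and 5.12 for H1047R.

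Tested as a difference in response, the change from DMSO to conditioned medium differed from that of wild type for most of the genes in each mutant line. In E545K against wild type 25 responses were higher and 3 lower (all genes 10% and 37.1%, 47.1% in all), or 25 called after median-centring, all higher. HMGCS1 (2.63, SE 0.15, adjusted p 2.81e-08), SCD (2.57, SE 0.10, adjusted p 6.09e-10), INSIG1 (2.51, SE 0.12, adjusted p 3.39e-09) and ACSS2 (2.27, SE 0.12, adjusted p 1.02e-08) had the largest differences. In H1047R against wild type 22 were higher and 4 lower (all genes 10.4% and 40.5%, 50.9% in all), led by HMGCS1 (2.63, SE 0.15, adjusted p 6.55e-08), INSIG1 (2.51, SE 0.12, adjusted p 1.07e-08), MSMO1 (2.29, SE 0.13, adjusted p 7.68e-08) and MVD (2.13, SE 0.14, adjusted p 2.55e-07). Both contrasts share the wild type libraries, and each holds the difference between lines in DMSO as well as that in conditioned medium. SCD went from 404 and 400.0 to 157 and 168 FPKM in wild type, from 102 and 96.4 to 201 and 209 in E545K, and from 257 and 243 to 189 and 185 in H1047R.

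**Figure D3:**
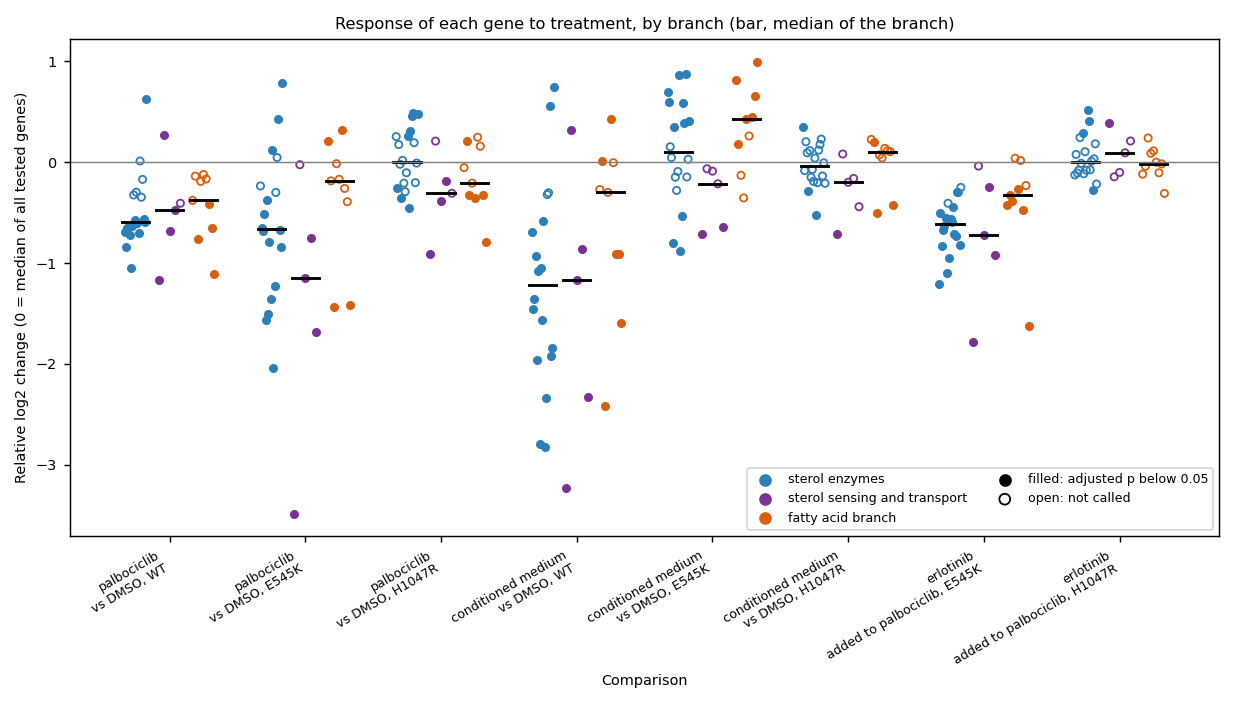
Relative log2 change of each of the 32 genes (points) in 8 treatment comparisons, coloured by branch, with filled points called at an adjusted p below 0.05 and black bars at the branch medians. Sterol enzymes lie lowest in wild type with conditioned medium (median -1.22) and INSIG1 in E545K with palbociclib is the lowest point (-3.48).

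TM7SF2, PMVK, SCAP and FADS1 were higher in wild type with conditioned medium and in both mutant lines in DMSO, where most of the list was lower. Of all genes, 51.9% were higher in wild type with conditioned medium, 48.4% in E545K and 49.9% in H1047R. Each of these comparisons is made against the same wild type libraries in DMSO, so they are not independent. They were chosen here after their values were seen, and not all of them rose in the other comparisons. After median-centring, TM7SF2, PMVK and FADS1 lost the call in E545K and SCAP lost it in H1047R, both in DMSO. With palbociclib in wild type, PMVK (-0.17) and FADS1 (-0.12) were not called, and in H1047R FADS1 fell from 31.3 and 32.4 to 24.8 and 23.7 FPKM (-0.35, SE 0.06, adjusted p 0.000373). With erlotinib in E545K, PMVK (-0.30, SE 0.08, adjusted p 0.0313) and FADS1 (-0.27, SE 0.05, adjusted p 0.013) were lower. TM7SF2 stood at 5.94 and 5.78 FPKM in wild type with DMSO and 13.2 and 12.9 with conditioned medium (0.74, SE 0.12, adjusted p 2.24e-06). PMVK stood at 4.74 and 4.01 against 9.18 and 8.14 FPKM (0.55, SE 0.12, adjusted p 1.51e-05), and FADS1, a desaturase of polyunsaturated fatty acids, at 18.7 and 20.0 against 32.1 and 32.9 FPKM (0.43, SE 0.06, adjusted p 1.21e-07). All 3 kept these calls in every alternative run. SCAP, the escort of SREBPs, stood at 10.3 and 10.9 against 16.0 and 17.5 FPKM (0.32, SE 0.10, adjusted p 6.79e-05), and lost the call after median-centring (adjusted p over all alternatives 3.52e-05 to 0.0529). In DMSO, TM7SF2 was higher in H1047R (17.0 and 13.7 FPKM, 0.98, SE 0.12, adjusted p 4.06e-07) and in E545K (9.04 and 8.68 FPKM, 0.27, SE 0.12, adjusted p 0.00174). Both other scalings ended the E545K call (adjusted p over all alternatives 0.000476 to 0.24). FADS1 overlaps FADS2 in the genome, and 7 of the 32 genes overlap another protein-coding gene (the others are ACAT2, MVK, IDI1, SREBF1, ACACA and FADS2). Whether strand was used in counting is not stated. HSD17B7 has a near-identical pseudogene copy, so its values are uncertain.

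In the second table, which was fitted apart from the first, most of these genes were lower in E545K with palbociclib and erlotinib than with palbociclib alone, and 1 was lower in H1047R. The combination was given for 48 h and the hours of palbociclib alone are not stated, so time and erlotinib cannot be told apart. In E545K 25 of the 32 were lower by limma and 0 higher (all genes 9.11% lower, 7.1% higher and 16.2% either). At an unadjusted p below 0.05 by limma, 27 of the 32 were lower and 0 higher. The share of all genes at that unadjusted threshold is not given. Between 19 and 20 genes were called when any of the 4 libraries was left out. The decrease covered 15 of 18 sterol enzymes, 4 of 5 sensing and transport genes and 6 of 9 fatty acid genes, with medians of -0.61, -0.72 and -0.32. INSIG1 went from 27.6 and 32.1 to 8.18 and 7.64 FPKM (-1.78, SE 0.08, adjusted p 5.65e-05). SCD went from 66.2 and 68.8 to 21.6 and 20.7 FPKM (-1.63, SE 0.14, adjusted p 0.000552). HMGCS1 went from 45.2 and 46.7 to 20.5 and 21.2 FPKM (-1.10, SE 0.06, adjusted p 6.67e-05). These were the steepest decreases beside ACAT2, at 23.8 and 22.1 FPKM without and 11.2 and 7.76 with erlotinib (-1.21, SE 0.15, adjusted p 0.00188), and in each of the 4 the groups did not overlap. SREBF1 went from 32.4 and 33.1 to 19.3 and 19.5 FPKM (-0.72, SE 0.05, adjusted p 0.000271), and SREBF2 from 43.5 and 43.1 to 36.1 and 36.2 (-0.25, SE 0.05, adjusted p 0.00851).

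In H1047R 4 genes were higher with erlotinib and 1 lower (all genes 3.01% and 6.35%, 9.36% in all). After median-centring 5 were called and after quantile normalization 6, all higher. MSMO1 stood at 36.6 and 40.2 FPKM in palbociclib and 52.9 and 54.9 with erlotinib (0.51, SE 0.06, adjusted p 0.00283). INSIG1 stood at 32.6 and 36.0 against 43.9 and 44.3 FPKM (0.39, SE 0.08, adjusted p 0.0328), and HMGCS1 at 39.4 and 43.2 against 49.9 and 49.2 FPKM (0.29, SE 0.06, adjusted p 0.0303). Neither group overlapped the other in these genes. The INSIG1 and HMGCS1 calls were lost without either erlotinib replicate, and the lower gene, PMVK (-0.28, SE 0.08, adjusted p 0.0401), lost its call in 8 of 10 alternatives. The total of 5 became 1 without either erlotinib replicate or with no filter on low values, 12 and 8 without palbociclib replicate 1 and 2, and 0 with only these groups in the fit. SCD stood at 51.6 and 75.6 FPKM in palbociclib and 48.6 and 49.5 with erlotinib and was not called (adjusted p 0.159).

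The response to erlotinib differed between the mutant lines for 16 genes, all higher in H1047R (all genes 0.899% higher, 1.27% lower and 2.17% either). None of the 32 had a lower response at an unadjusted p below 0.05 by limma, and 24 had a higher one. The share of all genes at that unadjusted threshold is not given. The largest differences were INSIG1 (2.18, SE 0.12, adjusted p 0.000391), HMGCS1 (1.40, SE 0.08, adjusted p 0.000476), SCD (1.32, SE 0.20, adjusted p 0.0198) and STARD4 (1.13, SE 0.13, adjusted p 0.00839). INSIG1 and HMGCS1 kept their calls in every alternative run. SCD and STARD4 lost theirs without either H1047R erlotinib replicate, among others. The total of 16 ranged from 4 to 23 when each of the 8 libraries was left out. It was 4 without either H1047R erlotinib replicate, 5 without either E545K palbociclib replicate, 6 and 5 without E545K erlotinib replicate 1 and 2, and 10 with no filter on low values.

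**Figure D4:**
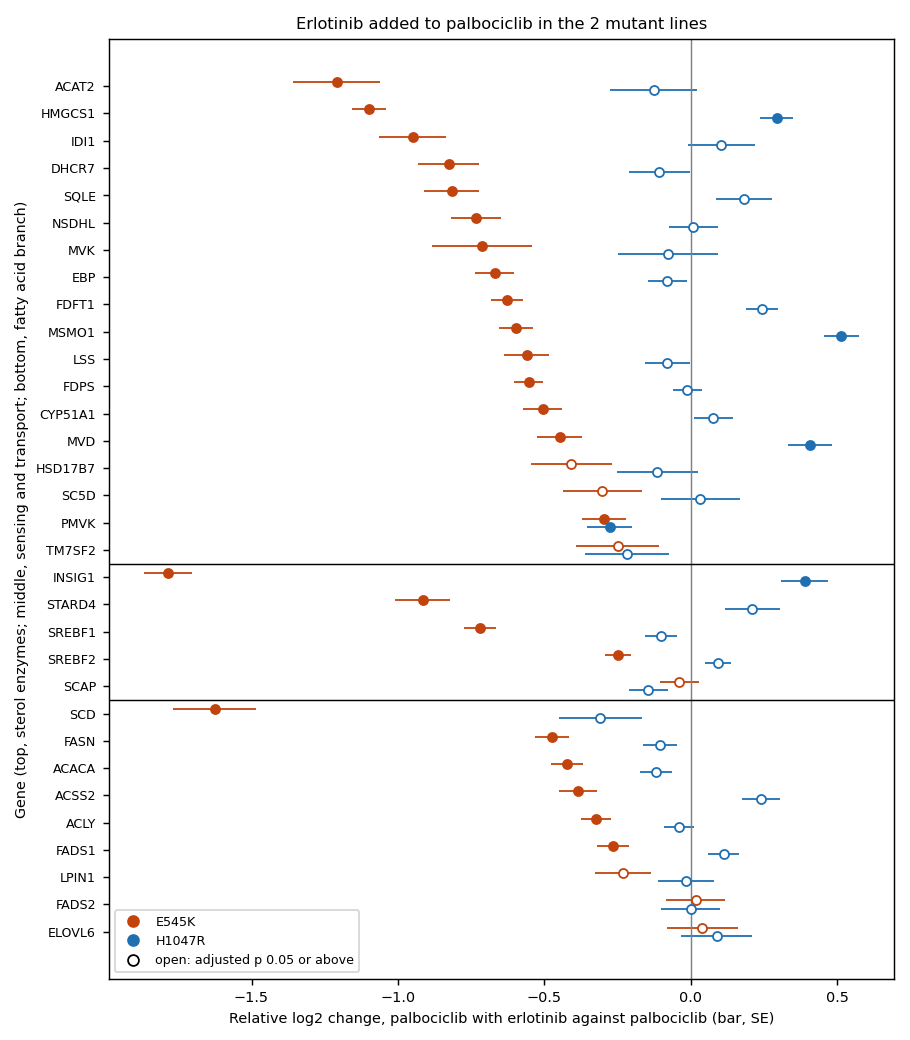
Relative log2 change of each of the 32 genes when erlotinib was added to palbociclib, in E545K (orange) and H1047R (blue), with bars for 1 SE and open points for an adjusted p of 0.05 or above. INSIG1 lies at -1.78 in E545K and 0.39 in H1047R, and most E545K points lie left of 0 while the H1047R points lie around it.

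Mutant lines in palbociclib appear in both tables, and their levels were not the same. In E545K, INSIG1 stood at 19.7 and 16.2 FPKM (first table) against 27.6 and 32.1 (second table). In H1047R it stood at 86.1 and 83.6 FPKM against 32.6 and 36.0, and SCD at 152 and 131 FPKM against 51.6 and 75.6. The mean log2(FPKM + 1) over the 32 genes was 4.54 and 4.52 against 4.73 and 4.75 in E545K. In H1047R it was 5.07 and 5.05 against 4.43 and 4.58, above E545K in the first table and below it in the second. No test was made across the tables.

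Other genes of the same biology were followed as lists. Of 9 genes of SREBP processing and sterol-regulated degradation, 8 were higher and 0 lower in E545K against wild type in DMSO by limma, 7 were higher and 1 lower in H1047R, and 7 were higher and 0 lower in wild type with conditioned medium, in comparisons where 48.4%, 49.9% and 51.9% of all genes were higher. ERLIN2, which works in degradation of sterol-sensing proteins, changed by 1.29 (SE 0.08, adjusted p 6e-09), 1.62 (SE 0.08, adjusted p 3.02e-10) and 1.63 (SE 0.08, adjusted p 1.45e-10) in those comparisons. MBTPS2, a protease that releases SREBPs, changed by 0.60, 0.75 and 0.82. Those comparisons all use the same wild type libraries in DMSO, so their results are not independent. INSIG2, the relative of INSIG1, was higher with palbociclib in wild type (0.45, SE 0.11, adjusted p 0.00117) and lower in H1047R (-0.37, SE 0.11, adjusted p 0.0118). Of 23 other genes of fatty acid synthesis, activation and esterification, 9 were higher and 9 lower in wild type with conditioned medium (all genes 51.9% and 18.6%). In E545K with palbociclib 9 were higher and 11 lower (all genes 32.9% and 19.3%), the latter including ACSL1, an acyl-CoA synthetase (-1.15, SE 0.08, adjusted p 1.03e-07). In wild type with conditioned medium, 4 of 9 tested genes of cholesterol export, storage and trafficking were higher and 2 lower, and 6 of 14 tested genes of fatty acid oxidation were higher and 2 lower, where 51.9% of all genes were higher and 18.6% lower.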

How the data were processed

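The authors deposited FPKM values per gene and library in 2 tables with 2 decimals, per the file headers. RSEM 1.3.1, HISAT2 2.1.0, DESeq2 1.4.5 and Bowtie2 2.3.4.3 appear with the builds GRCh38 and hg38 per the submitters' processing notes, which give no role for each. No counts are given, so depth is unknown. From these values, log2(FPKM + 1) was fitted with limma 3.58.1 (R 4.3.3) per table, with 1 term per group, trended empirical Bayes and all groups sharing the spread. Genes at 1 FPKM or more in at least 2 libraries were tested, and all 32 genes passed in both tables. P-values are two-sided and adjusted over all genes tested. The test was tried on simulated data. The 32 genes, other lists and motifs were chosen with earlier results of these data known. Values per library were set to be given for the genes with the widest range over the first table's groups (6 sterol, 3 sensing and 4 fatty acid genes) and for SREBF1, SREBF2 and FASN. They are given for some other named genes too. Up to 4 called genes per direction were set to be named per comparison, and some further genes were added. Plots used matplotlib 3.10.9 in Python 3.11.15. Alternatives were quantile normalization, median-centring, a pseudocount of 0.1, no filter, only the groups compared, each library left out, and a replicate block.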

Additional observations from a re-analysis of the deposited data

Results flagged for a closer look

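Each value below is a difference in response between lines, tested as an interaction in limma. It was singled out because the change between treatments differed between the lines. Each also holds the difference between the lines before treatment, in DMSO or, for erlotinib, in palbociclib alone.

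Under palbociclib, E545K and wild type differed for 18 of the 32 genes (25.7% of all genes). The relative log2 difference (E545K minus wild type) was -2.33 for INSIG1 and -1.45 for MSMO1, and 0.66 for FDPS and 0.58 for PMVK. The PMVK call was lost in 6 of its alternatives (adjusted p 0.0147 to 0.126). H1047R and wild type differed for 10 genes (22.6% of all genes), with 1.07 for FDPS, 1.02 for MVD and -0.23 for FADS1. The FADS1 call was lost after median-centring and with only the groups compared (adjusted p over all alternatives 0.00217 to 0.162).

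Under conditioned medium, E545K and wild type differed for 28 genes (47.1% of all genes). The difference was 2.63 for HMGCS1, 2.57 for SCD, -0.40 for SCAP and -0.35 for TM7SF2. SCAP and TM7SF2 lost the call after median-centring, and TM7SF2 also after quantile normalization (adjusted p over all alternatives 0.000211 to 0.0638 and 0.00039 to 0.166). H1047R and wild type differed for 26 genes (50.9% of all genes), with 2.63 for HMGCS1, 2.51 for INSIG1, -0.96 for TM7SF2 and -0.39 for FADS1. Between DMSO and conditioned medium, mean HMGCS1 went from 302.63 to 52.8 FPKM in wild type, from 83.4 to 77.7 in E545K and from 70.85 to 64.3 in H1047R.

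When erlotinib was added to palbociclib, H1047R and E545K differed for 16 genes (2.17% of all genes). The difference (H1047R minus E545K) was 2.18 for INSIG1 and 1.40 for HMGCS1. The hours of palbociclib alone are not stated, so time and erlotinib cannot be told apart here either.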

How the results depend on the processing

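Over 19 comparisons and 210 alternative fits, the number of the 32 genes called stayed within 1.5 times of the reported number in 178. None of the 127 named changes turned its direction in 1398 fits, and 135 fits lost a call. The 127 were up to 4 called genes per direction in each comparison, those with the largest change in these same libraries. A turn in direction was therefore unlikely from the start. Other changes named in the text were not part of this check. The totals outside 1.5 times of the reported number follow. With only the groups compared, totals were 2 (palbociclib in H1047R), 4 (conditioned medium in H1047R), 4 (palbociclib response, H1047R minus wild type) and 0 (erlotinib in H1047R). For erlotinib in H1047R, the reported limma fit had 6 of the 32 higher and 6 lower at an unadjusted p below 0.05. The share of all genes at that unadjusted threshold is not given. Median-centring gave 11 for E545K against wild type in conditioned medium and 16 for the palbociclib response of H1047R. With no filter on low values, totals were 1 for erlotinib in H1047R and 10 for the difference in erlotinib response. Leaving out each library gave 9 to 24 for palbociclib in H1047R, 4 to 6 for conditioned medium in H1047R, 10 to 12 and 1 to 4 for E545K and H1047R against wild type in conditioned medium, 10 to 16 and 8 to 16 for the palbociclib responses of E545K and H1047R, 1 to 12 for erlotinib in H1047R, and 4 to 23 for the difference in erlotinib response. The cause was not tested. A replicate block kept all 19 totals within 1.5 times, for example 25 for erlotinib in E545K, 26 for E545K against wild type in DMSO and 14 for the difference in erlotinib response. Correlations of same-numbered deviations ran from -0.56 to 0.55 over 36 pairs of groups in the first table, with 15 above 0.1 and 6 below -0.1. In the second table they ran from -0.10 to 0.03. Whether the replicate numbers pair the samples is not settled by these values. The pseudocount of 0.1 and quantile normalization kept all 19 too. With 2 libraries per group and no counts, neither depth nor small changes of genes near 1 FPKM, such as FADS2, can be judged.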

Other observations

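On the FPKM scale, some genes of the list differed little between the groups that lay farthest apart. ACLY, which makes acetyl-CoA from citrate ahead of both branches, stood at 64.3 and 67.1 FPKM in wild type with DMSO and 63.9 and 64.3 in E545K with palbociclib, between which INSIG1 and MSMO1 had their widest gap, and its highest group mean was 1.27 times its lowest over the first table. NSDHL stood at 18.8 and 19.9 against 19.6 and 16.8 FPKM in the same groups, and MVK at 14.8 and 17.5 against 13.9 and 13.6. The median log2(FPKM + 1) of all genes tested was higher in the second of these groups (3.63 and 3.64) than in the first (3.21 and 3.20). Against that median, ACLY, NSDHL and MVK lay lower in E545K with palbociclib than their FPKM shows. Their relative log2 change between these groups was not computed. ELOVL6, an elongase of saturated fatty acids, was lower in H1047R. It stood at 4.78 and 4.78 FPKM in wild type, 4.59 and 4.06 in E545K and 2.36 and 2.76 in H1047R with DMSO, and with palbociclib at 4.93 and 4.24 for wild type, 4.56 and 4.58 for E545K and 2.55 and 1.57 for H1047R. Against wild type, H1047R was lower in DMSO (-0.96, SE 0.13, adjusted p 0.000213) and in palbociclib (-0.98, SE 0.13, adjusted p 3.08e-05). E545K was not called in either (adjusted p 0.441 and 0.995). In conditioned medium both E545K (-0.45, SE 0.13, adjusted p 0.0203) and H1047R (-0.61, SE 0.13, adjusted p 0.00765) were lower than wild type, and each call was lost in 3 of 10 alternatives, those without a wild type replicate or without replicate 2 of the mutant line. In the second table it stood at 4.43 and 4.94 FPKM in E545K and 3.52 and 4.32 in H1047R with palbociclib. These genes were picked after their values were seen.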
